A study of Caenorhabditis elegans with 3 samples.

Results

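The proteasome subunit genes of Caenorhabditis elegans were taken as every measured gene whose symbol begins with pas, pbs, rpn or rpt, followed by a hyphen and a number. The sequence names in the table were translated to symbols, and 33 of 20392 measured genes met this rule. RefSeq symbols gave the same 33 genes. RNA was sequenced after removal of ribosomal RNA from whole wild-type N2 worms at the fourth larval stage (L4), with no treatment. They were fed OP50 bacteria at 25 °C and harvested 29 h into synchronized growth. There was 1 group of 3 libraries, which the submitters call independent, so nothing was compared between conditions and no p-value is given. The labels do not say whether separate cultures were used, so the spread between libraries may be partly technical. Values are TPM, a relative transcript abundance corrected for transcript length and scaled to one library total. Read depth cannot be recovered from TPM and is unknown here, and errors are SDs over the 3 libraries.

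The proteasome is the barrel-shaped protease that degrades proteins tagged with ubiquitin. Its core particle stacks rings of alpha subunits (pas genes), which gate the entry, around rings of beta subunits (pbs genes), some of which cut the substrate. The regulatory cap has a base, with a ring of ATPases (rpt genes) that unfold substrates, and a lid of non-ATPase subunits (rpn genes), which removes the ubiquitin chain. Each complete particle holds equal numbers of most of these subunits. In worms, losing proteasome activity raises the RNA of subunit genes through the transcription factor SKN-1A.

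Each library summed to 1000000 TPM and held between 13172 and 13444 genes at 1 TPM or more. The label of whole worms was checked with markers of body wall muscle, intestine, hypodermis, neurons and germ line. All 10 were above 1 TPM in every library, a limit that 61.1% of all measured genes also reached, so this is a weak check. They ran from the vesicle GTPase gene rab-3 at 4.05 ± 0.977 TPM (SD, n = 3) to the myosin gene unc-54 at 678 ± 7.27 TPM. Libraries differed in other transcripts. The 31 major sperm protein genes held 0.221%, 0.0864% and 0.05002% of TPM in replicates 1, 2 and 3, and the 156 numbered collagen genes 0.729%, 1.17% and 2.09%. In whole worms, a smaller number of cells of one type and less RNA per cell cannot be told apart.

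All 33 subunit genes were detected, at 1 TPM or more in every library, as were 61.1% of all measured genes. Together they held 2740, 2551 and 2240 TPM in replicates 1, 2 and 3, which is 0.251% ± 0.0253 (SD, n = 3) of the total. Their median log2(TPM + 1) was 6.24 ± 0.18. Of the 33 genes, 32 had a mean between 43.6 and 145 TPM, which placed them between percentiles 91.1 and 96.9 of all measured genes. The remaining gene, rpn-6.2, lay far below them at percentile 75.6. No measured gene outside the 33 had the same 3 values as a subunit gene. Similar genes that share reads need not have equal values, and sharing of reads was not analysed.

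**Figure D1:**
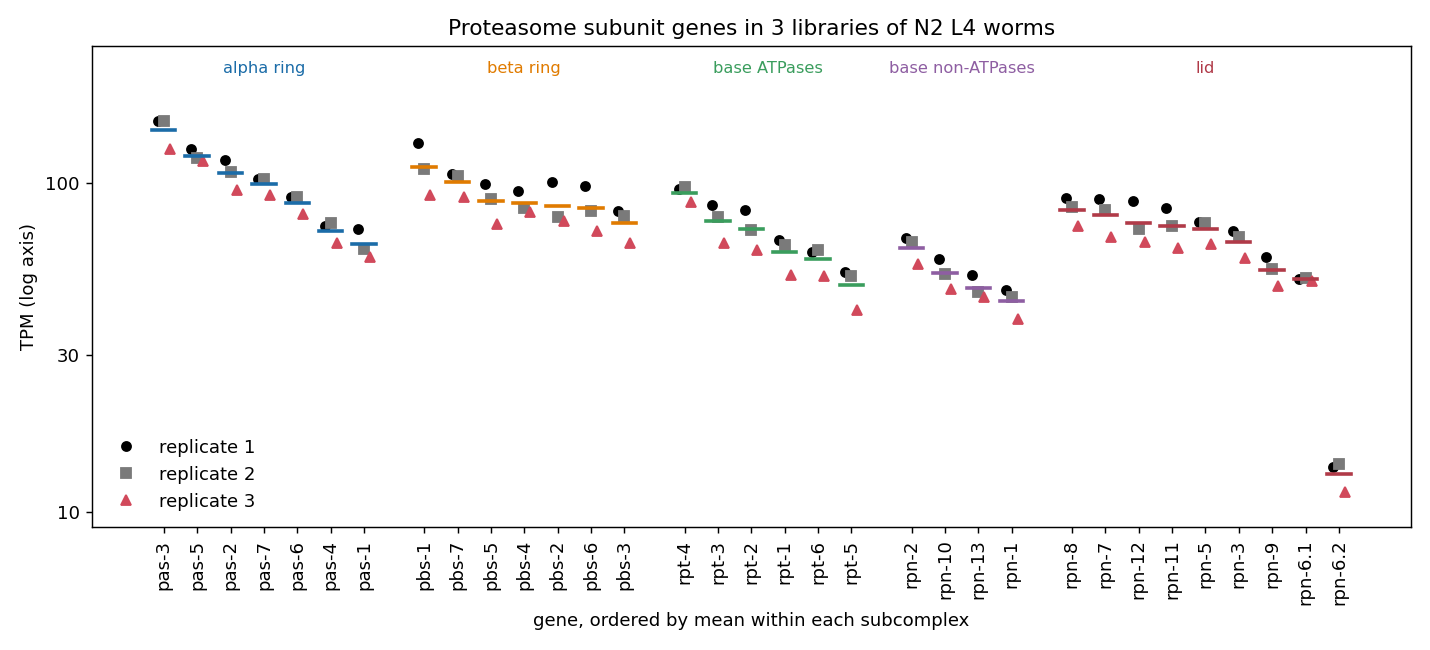
TPM (log axis) of the 33 proteasome subunit genes in each of the 3 libraries, grouped by subcomplex; points are libraries and bars are means over 3. Apart from rpn-6.2 at 13.1 TPM, the means lie between 43.6 and 145 TPM, and the triangle of replicate 3 is the lowest point of every gene.

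The alpha ring genes stood highest. Their median over 7 genes was 99.0 ± 6.16 TPM (SD, n = 3), and the means of single genes ran from 64.9 to 145 TPM. The highest of all 33 genes was pas-3 (WBcel235 chromosome I, 5105110 to 5106048), with 153, 154 and 127 TPM in replicates 1, 2 and 3. It was followed by pas-5 (chromosome I, 10566350 to 10567300), with 126, 118.6 and 116 TPM. Even the lowest library of pas-3 exceeded the highest of pas-5, and the difference of the means, 24.4 TPM, was larger than the sum of their SDs. The lowest alpha gene, pas-1 (chromosome V, 14421566 to 14422618), had 72.5, 63.0 and 59.2 TPM. The pas-3 and pas-1 values did not overlap. Between them lay pas-2 at 106.6 ± 11.02, pas-7 at 99.0 ± 6.16, pas-6 at 86.9 ± 5.80 and pas-4 at 71.5 ± 5.24 TPM.

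The beta ring genes were more alike in level. Their means ran from 75.5 TPM for pbs-3 to 111 TPM for pbs-1, and their median was 86.5 ± 11.7 TPM (SD, n = 3). By homology with yeast and mammals, pbs-1, pbs-2 and pbs-5 encode the subunits with the caspase-like, trypsin-like and chymotrypsin-like cutting activities. The highest of the ring, pbs-1 (chromosome IV, 1708814 to 1709745), had 132, 110 and 91.8 TPM in replicates 1, 2 and 3. The gene pbs-2 (chromosome I, 12967216 to 12968280) had 100.1, 78.7 and 76.3 TPM. The gene pbs-5 (chromosome I, 14719167 to 14720477) had 99.3, 89.2 and 74.6 TPM. All 3 were highest in replicate 1, as were the 4 non-catalytic genes of the ring and 39.8% of detected genes. The values of pbs-2 and pbs-5 overlapped. The non-catalytic members were pbs-7 at 100.4 ± 8.77, pbs-4 at 86.6 ± 6.73, pbs-6 at 83.6 ± 13.5 and pbs-3 at 75.5 ± 8.83 TPM. The mean log2(TPM + 1) of the catalytic genes exceeded that of the other beta genes by 0.21, 0.08 and 0.07 in the 3 libraries. The median of the catalytic genes (87.7 TPM) lay inside the range of the others.

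The ATPases of the base spanned 48.9 to 93.2 TPM, with a median of 66.9 ± 8.70 TPM (SD, n = 3). The highest was rpt-4 (chromosome II, 42207 to 46216), with 95.8, 96.8 and 87.1 TPM in replicates 1, 2 and 3. Next was rpt-3 (chromosome III, 6489793 to 6491282), with 85.4, 78.7 and 65.6 TPM, which did not overlap rpt-4. The lowest was rpt-5 (chromosome I, 5741868 to 5743571), with 53.6, 51.9 and 41.1 TPM. Among these 6 genes, whose products form a single ring, rpt-4 was above the other genes in every library. The others were rpt-2 at 72.4 ± 10.004, rpt-1 at 61.4 ± 7.76 and rpt-6 at 58.6 ± 5.69 TPM.

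The base subunits that are not ATPases were the lowest group, with a median of 50.5 ± 4.72 TPM over 4 genes. They include the large scaffold proteins RPN-1 and RPN-2, and RPN-1, RPN-10 and RPN-13 bind ubiquitin or ubiquitin-like domains. The scaffold gene rpn-2 (chromosome III, 6199184 to 6202594) had 67.8, 66.0 and 56.4 TPM in replicates 1, 2 and 3. The receptor gene rpn-10 (chromosome I, 10730712 to 10732424), which in worms also acts in sex determination of the hermaphrodite germ line, had 58.7, 52.8 and 47.7 TPM. The receptor gene rpn-13 (chromosome III, 6340113 to 6341928) had 52.5, 46.4 and 44.9 TPM. The receptor gene rpn-1 (chromosome IV, 6906420 to 6909913) had 47.1, 45.1 and 38.6 TPM. In each library the order was rpn-2, rpn-10, rpn-13 and rpn-1. The range of rpn-13 overlapped those of rpn-10 and rpn-1, which did not overlap each other.

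The lid held 8 genes of similar level and a ninth gene far below. The highest were rpn-8 (chromosome I, 4175319 to 4177271), with 89.7, 84.0 and 73.8 TPM in replicates 1, 2 and 3, and rpn-7 (chromosome IV, 9316631 to 9318632), with 88.9, 82.3 and 68.6 TPM. RPN-8 pairs with RPN-11, the metalloprotease that cuts ubiquitin chains off the substrate, and rpn-11 (chromosome II, 4043055 to 4044546) had 83.8, 73.8 and 63.1 TPM. In each library rpn-8 was above rpn-11, but their ranges overlapped. Other lid genes were rpn-12 at 75.3 ± 11.2, rpn-5 at 72.3 ± 6.11, rpn-3 at 66.2 ± 6.45 and rpn-9 at 54.2 ± 5.43 TPM.

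Within the lid, rpn-6.1 and rpn-6.2 are paralogues of the subunit that in yeast braces the cap against the core. The gene rpn-6.1 (chromosome III, 6959110 to 6962001), known for its increase in long-lived worms without a germ line, had 51.0, 51.4 and 50.3 TPM in replicates 1, 2 and 3. The gene rpn-6.2 (chromosome III, 8999817 to 9001999) had 13.7, 13.97 and 11.5 TPM. The values did not overlap, and rpn-6.1 was 3.72, 3.68 and 4.39 times as abundant in the 3 libraries. The next gene above rpn-6.2 in the order of all 33 was rpn-1, whose mean was 30.6 TPM higher, more than the sum of the SDs. Both paralogues have 2 annotated transcripts, of 1552 and 1646 nt for rpn-6.1 and of 642 and 1557 nt for rpn-6.2. How reads were divided between these transcripts, and any sharing of reads between the paralogues, was not analysed here.

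Most neighbours in the order of means were not separated beyond their spread between libraries. Of 32 pairs of adjacent genes, the gap exceeded the sum of the SDs in 2, namely pas-3 above pas-5 and rpn-1 above rpn-6.2. The order of an adjacent pair was the same in 3 of 3 libraries for 13 pairs. The SDs include changes between libraries that the genes share, which the order within a library leaves out. The order as a whole was nevertheless similar between libraries, with Spearman's rho of 0.964 for replicates 1 and 2, 0.977 for replicates 1 and 3 and 0.978 for replicates 2 and 3 over the 33 genes. These coefficients describe genes that share a library and carry no p-value. Of the 10 highest genes 9 encode core subunits, rpt-4 being the exception, and the 10 lowest all encode cap subunits.

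The core genes as a set were above the cap genes. The mean log2(TPM + 1) was 6.54 for the 14 core genes and 5.90 for the 19 cap genes, a difference of 0.64 ± 0.02 (SD, n = 3). It was 0.66, 0.62 and 0.65 in replicates 1, 2 and 3, and 0.53 ± 0.01 without rpn-6.2. The genes share their libraries and are not replicates, so the difference is a description without a test. Core genes held 52.8%, 52.5% and 52.9% of the summed proteasome TPM in the 3 libraries. The sum itself varied more, but a share leaves out any change that its parts have in common. Within the core, the alpha ring held 27.7% ± 0.759 and the beta ring 25.05% ± 0.785. Within the cap, the ATPases held 16.4% ± 0.309, the other base subunits 8.29% ± 0.0750 and the lid 22.6% ± 0.0514.

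Core and cap genes also differ in transcript length. The longest annotated transcripts of the core genes measure 801 to 1059 nt, and those of the cap genes 855 to 3171 nt. Only 1 cap gene, rpn-12, lies within the core range, and the shortest of the other cap genes has 1234 nt. At 75.3 TPM, rpn-12 was below 12 of the 14 core genes. Across the 33 genes, log2 mean TPM and log2 length had Pearson's r = -0.51 and Spearman's rho = -0.67. Within the 14 core genes r was -0.23, within the 18 cap genes other than rpn-6.2 it was -0.33, and across 12336 detected genes with an annotated length it was -0.20. With lengths this far apart, position in the complex and transcript length cannot be told apart here. When each TPM value is multiplied by transcript length, to approximate nucleotides of RNA, the 14 core genes held 38.6% and the 19 cap genes 61.4%. These are sums over unequal numbers of genes. In such sums the core was ahead in transcripts but not in RNA mass.

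**Figure D2:**
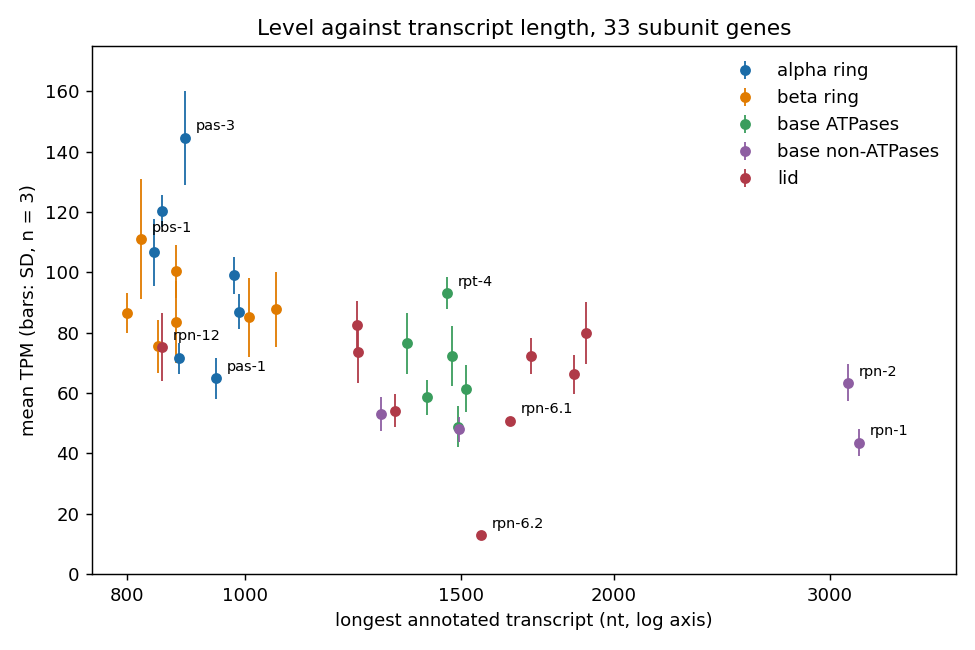
Mean TPM of each subunit gene (bars, SD, n = 3) against its longest annotated transcript in nucleotides (log axis), coloured by subcomplex. The 14 core genes lie between 801 and 1059 nt, where rpn-12 is the only cap gene, and rpn-6.2 is below all other genes at 13.1 TPM.

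As a set, the subunit genes fell from replicate 1 to 2 to 3. All 33 were lowest in replicate 3, against 36.3% of all detected genes. In replicate 1, 26 were highest, against 39.8% of detected genes. The other 7 were highest in replicate 2, against 20.0%. After rescaling the libraries by median-of-ratios, 33 genes were again lowest in replicate 3, against 38.1% of detected genes. Values were divided by factors of 1.003, 0.999 and 1.010 in replicates 1, 2 and 3. Genes lowest in replicate 3 therefore had to stay lowest, so this count adds nothing. With totals that leave out genes with a transcript under 300 nt, rpn-6.1 was the exception and was lowest in replicate 1. The number highest in replicate 1 was less steady, from 21 to 26 over the scalings and totals tried. The median of log2(TPM in replicate 1 / TPM in replicate 3) was 0.29 over the subunit genes, and -0.01 over all 12454 detected genes. For replicate 1 over replicate 2 the medians were 0.09 and 0.02, and for replicate 2 over replicate 3 they were 0.20 and -0.01. Of the 33 genes, 22 lay above 0.26, the upper quartile of detected genes. The shift was small for any single gene. None of the 33 differed by a factor of 2 or more between its highest and lowest library, against 15.4% of detected genes, and the median coefficient of variation was 10.3%, near the 10.4% of detected genes in the same range of means. The median coefficient of variation was 4.36% without replicate 3, 9.99% without replicate 1 and 14.1% without replicate 2. Such values were not computed for other detected genes. Several markers changed over the libraries as well. The hypodermal cuticle gene dpy-7 had 121, 90.8 and 40.6 TPM in replicates 1, 2 and 3. The other hypodermal marker, elt-3, went the opposite way, with 8.04, 8.83 and 10.1 TPM. The share of major sperm protein genes fell from replicate 1 to 2 to 3, and that of collagen genes rose. Of the 10 tissue markers, 4 were lowest in replicate 3, against 36.3% of detected genes, and 6 in replicate 1, against 38.3%, with means from 4.05 to 678 TPM, and none was at 0. The part of these differences in the shift of the subunit genes was not tested.

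**Figure D3:**
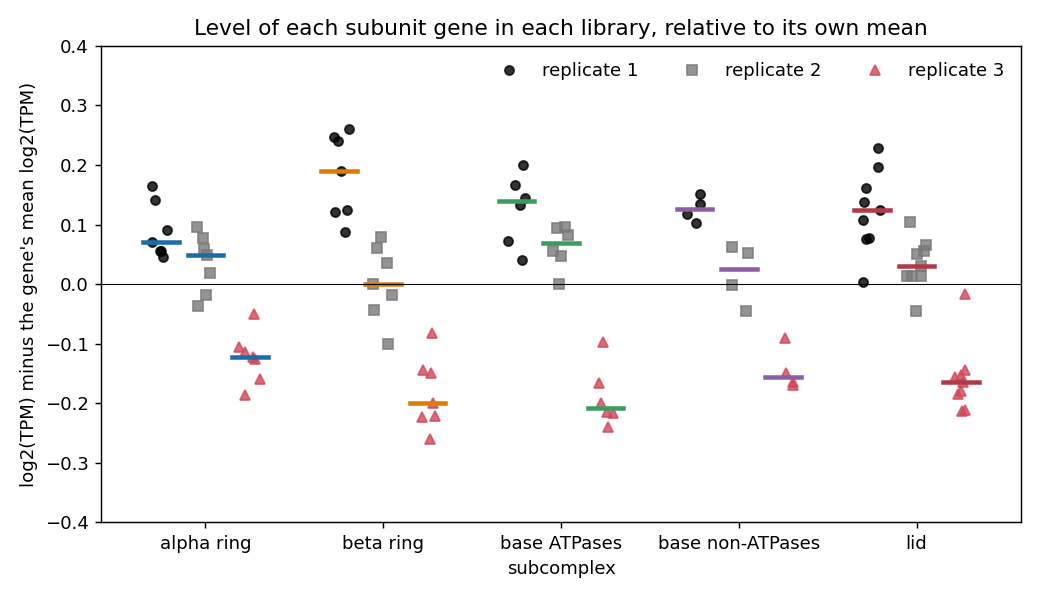
log2(TPM) of each subunit gene in each library minus the gene's mean over the 3 libraries, by subcomplex; points are genes and coloured bars are medians. Replicate 3 is below 0 for all 33 genes, and the beta ring differs from the alpha ring by its high values in replicate 1.

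The rings differed in how far replicate 1 stood above the others. All 7 beta ring genes were highest in replicate 1, and 4 of 7 alpha ring genes were, against 39.8% of detected genes. The other 3 alpha genes were near ties between replicates 1 and 2. They were pas-3 with 153.4 and 153.9 TPM, pas-6 with 90.17 and 90.35 TPM and pas-4 with 73.6 and 75.3 TPM. The median of log2(replicate 1 / replicate 2) was 0.17 for the beta ring and 0.01 for the alpha ring. The median of log2(replicate 1 / replicate 3) was 0.39 for the beta ring and 0.17 for the alpha ring, 0.37 for the base ATPases, 0.28 for the other base subunits and 0.28 for the lid. In mean log2(TPM + 1), the alpha ring exceeded the beta ring by 0.01, 0.14 and 0.16 in replicates 1, 2 and 3. The order of the rings was thus the same in 3 of 3 libraries, but in replicate 1 they were nearly level. The 3 genes with the largest coefficients of variation were all beta genes, pbs-1 at 17.9%, pbs-6 at 16.1% and pbs-2 at 15.4%. The gene pbs-6 had 97.9, 81.9 and 71.1 TPM. The 3 with the smallest were rpn-6.1 at 1.03%, pas-5 at 4.38% and rpt-4 at 5.73%.

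As a share of the summed proteasome TPM, most genes were steadier. The coefficient of variation of the share was smaller than that of TPM for 31 of 33 genes, with a median of 4.21%. Each gene is part of the sum, and all 33 were lowest in replicate 3. Dividing by the sum therefore removes the common shift, so a smaller variation follows from the arithmetic. No other gene set was scaled by its own sum. Some genes kept an almost fixed share. The lid gene rpn-8 held 3.27%, 3.29% and 3.29% of the sum in replicates 1, 2 and 3, and pas-2 held 4.27%, 4.22% and 4.25%. The gene rpn-6.1 went the other way, since its level was nearly the same in the 3 libraries while the sum was not. It held 1.86%, 2.01% and 2.25%, and the coefficient of variation of its share, 9.53%, was the largest of the 33. The gene pbs-1 held 4.803%, 4.309% and 4.099%. By this measure 19 of the 33 genes held a larger share in replicate 3 than in replicate 1. They were 6 of 7 alpha genes, 2 of 7 beta genes, 2 of 6 base ATPase genes, 3 of 4 other base genes and 6 of 9 lid genes. Shares of a sum are tied to each other, so a larger share of some genes requires a smaller share of others.

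**Figure D4:**
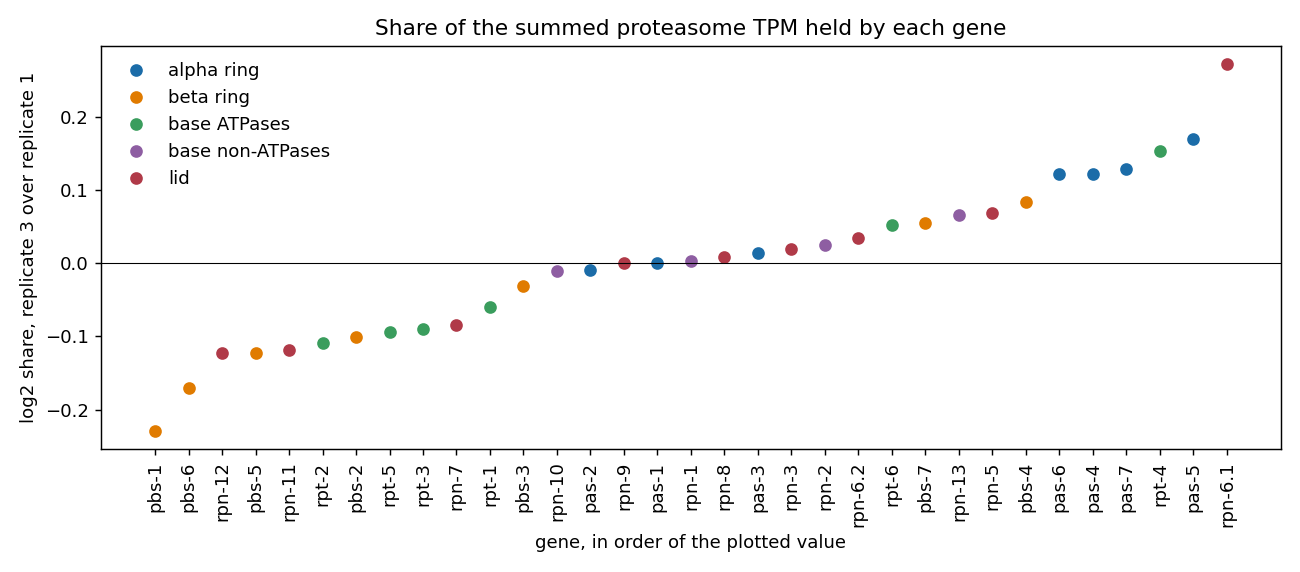
log2 of each gene's share of the summed proteasome TPM in replicate 3 over that in replicate 1, with genes ordered by this value and coloured by subcomplex. Most genes lie near 0, rpn-6.1 is highest at 0.27 and pbs-1 lowest at -0.23.

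Genes that act with the proteasome were set beside it. The ubiquitin and delivery list held 12 genes, all detected, against 61.1% of measured genes. They ran from the Npl4 cofactor gene npl-4.2 at 23.1 ± 1.22 TPM to ubq-2, which encodes ubiquitin fused to a ribosomal protein, at 3521 ± 81.6 TPM. The polyubiquitin gene ubq-1 had 290.3, 325 and 284 TPM in replicates 1, 2 and 3. All 12 were lowest in replicate 3, against 36.3% of detected genes, and their median log2(replicate 1 / replicate 3) was 0.12. Other members were the ubiquitin-activating enzyme gene uba-1 at 66.8 ± 5.50 TPM and cdc-48.2, one of a pair of genes for the segregase that extracts ubiquitylated proteins, at 111 ± 13.1 TPM.

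Of 8 proteasome-associated factors, all were detected, against 61.1% of measured genes, and 6 were lowest in replicate 3, against 36.3% of detected genes. The highest was dss-1, the small lid subunit that the symbol rule does not reach, with 93.8, 94.6 and 86.2 TPM in replicates 1, 2 and 3. The lowest was aip-1, an arsenite-induced proteasome adaptor, with 11.7, 9.25 and 8.72 TPM. The deubiquitinase genes usp-14 and ubh-4 had 49.98 ± 5.85 and 56.4 ± 1.875 TPM. The exceptions to the low replicate 3, named after their values were seen, were psme-3, which in mammals encodes a nuclear activator of the core, at 51.5 ± 2.52 TPM and psmd-9, which in yeast and mammals encodes an assembly chaperone, at 17.4 ± 0.221 TPM.

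The 6 genes listed for SKN-1A control were detected too, against 61.1% of measured genes, and 4 were lowest in replicate 3, against 36.3% of detected genes. The regulator gene skn-1 itself had 12.8, 12.6 and 13.2 TPM in replicates 1, 2 and 3, summed over its isoforms, of which SKN-1A is 1 and could not be told apart. The genes for the enzymes that edit and cleave SKN-1A were png-1, the lowest of the list at 7.97 ± 0.715 TPM, and ddi-1 at 23.3 ± 1.83 TPM. The highest was sel-9 at 131 ± 14.8 TPM, whose product is known as a cargo adaptor of the secretory pathway. The level of skn-1 was nearly the same in all libraries, with a coefficient of variation of 2.02%, and was lowest in replicate 2. A relation between skn-1 and the level of the subunit genes was not tested.

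For comparison with other complexes of fixed composition, the COP9 signalosome, a relative of the lid, and the CCT chaperonin, which folds actin and tubulin, were described. The 6 measured COP9 genes had means from 13.9 TPM for csn-4 to 27.25 TPM for csn-2, well under the lid genes other than rpn-6.2, and csn-7 and csn-8 matched no measured gene by symbol. The 8 CCT genes had means from 57.8 TPM for cct-7 to 150.4 TPM for cct-5, a range that overlaps that of the proteasome. Their highest mean was 2.60 times the lowest, against 3.32 times for the 32 subunit genes other than rpn-6.2 and 11.1 times for all 33. The SD of log2(TPM + 1) among genes was 0.50 for CCT, 0.34 for COP9 and 0.41 for those 32 subunit genes. In replicate 3, 1 of 8 CCT genes and 3 of 6 COP9 genes were lowest, against 36.3% of detected genes, and the single CCT gene, named after its values were seen, was cct-6. The median log2(replicate 1 / replicate 3) was -0.08 for CCT and 0.04 for COP9. The differences between these lists and the subunit genes were not tested.

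**Figure D5:**
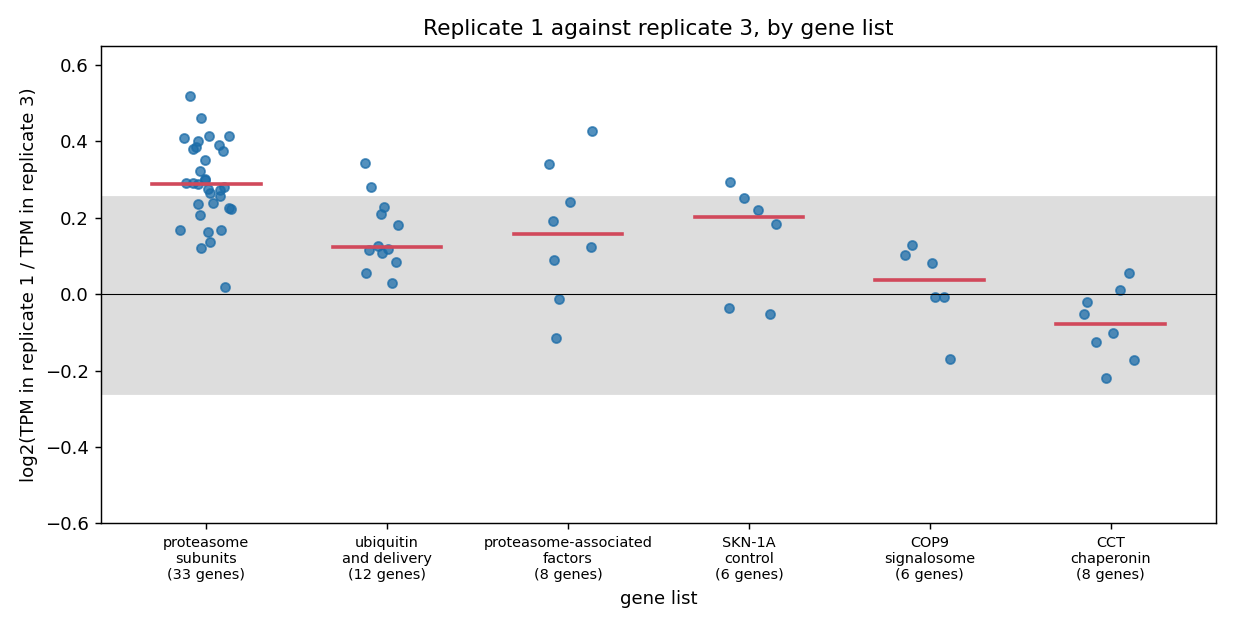
log2(TPM in replicate 1 / TPM in replicate 3) of each gene, by gene list; points are genes, red bars are medians and the grey band is the interquartile range of 12454 detected genes. All 33 proteasome subunit genes and all 12 ubiquitin and delivery genes lie above 0, while 6 of 8 CCT genes lie below it.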

How the data were processed

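Columns of TPM per gene, 1 for each of 3 libraries, were deposited as 1 table. Per the submitters' processing notes, the authors used kallisto, whose version, index, annotation and genome build are not given in the sources used here. TPM was taken as deposited. Per the labels' protocols, libraries were made with a stranded kit after Ribo-Zero depletion. The authors' mean column matched the library mean to within 6.67e-06 and was not used further.

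Of 20392 sequence names, 20133 (98.7%) matched 1 gene of the Ensembl release 115 annotation of WBcel235, which gave symbols, positions and transcript lengths. A name carried by more than 1 gene stayed unmatched. Sets are described as medians over genes of log2(TPM + 1), with a pseudocount of 1, then as mean and SD over libraries. Median-of-ratios factors used genes above 0 in every library. Calculations used Python 3.11.15, numpy 2.4.6, pandas 2.3.3 and scipy 1.17.1, and the scaling step was tested on simulated data.

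All 33 subunit genes are given. Values per library are printed for the 2 highest and the lowest of each subcomplex, catalytic and receptor subunits, rpn-11, the rpn-6 paralogues and the 3 most and 3 least variable genes. For each companion list the highest and the lowest gene are named. Members and lists were chosen with earlier results of these data known. Planned searches of protein and promoter sequences were not made, and no sequence is analysed here. Alternatives were other pseudocounts, detection limits, filters, totals and scaling, and leaving out each library.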

Additional observations from a re-analysis of the deposited data

How the results depend on the processing

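With other pseudocounts, filters or scaling, or with means in place of medians, the level of the subunit genes moved by less than its SD. The same held for each subcomplex but 1. The exception was the lid, whose mean in place of its median was 5.86, because rpn-6.2 enters the mean. The core stayed above the cap in every setting, by 0.60 with a pseudocount of 5, 0.50 with medians and 0.53 without rpn-6.2. The last setting was chosen after the data had been seen. The spread of levels among subunits (SD of log2, 0.58) was 0.60 with a pseudocount of 0.1, 0.53 with a pseudocount of 5 and 0.41 without rpn-6.2. The share of the library total was 0.567% without the 100 most abundant genes and 0.381% without genes with an annotated transcript under 300 nt, none of which is a subunit gene. All 33 genes were detected at limits of 0.5 and 5 TPM. The count lowest in replicate 3 was 33 with median-of-ratios rescaling, which could not lower it, and without the 100 most abundant genes. It was 32 without the genes with a short transcript, a setting added after the data had been seen, where rpn-6.1 was lowest in replicate 1. The count highest in replicate 1 was 26, 21 and 23 in these settings. The median coefficient of variation ranged from 4.36% without replicate 3 to 14.1% when another replicate was left out. Single gene levels moved by less than their SD with median-of-ratios rescaling. Leaving out 1 of 3 libraries cannot move a mean over libraries by as much as its SD. For single genes, all subunit genes and subcomplexes, that comparison therefore says nothing of stability. No paired comparison of conditions was possible because there is 1 group, while contrasts between genes are given within each library. The limits are 3 libraries, an unknown depth and a common shift of the subunit genes over the libraries, with replicate 3 the lowest.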

Other observations

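All subunit genes were on autosomes, with 10 on chromosome I, 7 on II, 8 on III, 3 on IV and 5 on V. These chromosomes hold 2860, 3492, 2651, 3287 and 5087 of the 20133 measured genes with an annotated position. None was on the X chromosome, which holds 13.6% of the measured genes with an annotated position. In worms, many genes are transcribed in operons, where a gene follows another on the same strand at a short distance. A protein-coding gene ended within 500 bases upstream on the same strand for 8 of 33 subunit genes, against 18.1% of measured protein-coding genes, so the 24.2% of the subunit genes is near the background. Of these upstream genes, K05C4.2 lay 110 bases before pbs-5 and had a mean of 99.1 TPM against 87.7 TPM for pbs-5. The mitochondrial ribosomal protein gene mrpl-9 lay 118 bases before rpn-10, with 49.8 TPM against 53.1 TPM. The RNA polymerase I subunit gene rpoa-12 lay 106 bases before pas-1, with 24.6 TPM against 64.9 TPM. These 3 pairs were chosen after their values were seen, and the other 5 upstream genes were each less abundant than the subunit gene that follows. Their means were 8.01 TPM for ulp-2 before pbs-3, 3.08 TPM for F59B2.15 before rpn-6.2, 2.43 TPM for C56G2.9 before rpn-13, 0.435 TPM for chtb-2 before rpt-3 and 0.0379 TPM for K07D4.2 before rpn-11.

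Exons of 9 subunit genes overlap a measured gene on the opposite strand, and those of pbs-7 overlap K07A12.5 on the same strand by up to 70 bases. The share of all measured genes with such an overlap was not computed. The longest overlap, of 212 bases, was that of rpn-7 with nemt-1, which had a mean of 2.58 TPM. The gene rpt-6, at 58.6 TPM, overlaps glrx-5, at 72.7 TPM, by up to 26 bases. The overlapping gene of rpn-10, B0205.12, had a mean of 666 TPM, and its overlap with rpn-10 is at most 32 bases. Whether strand was used in the quantification is not given in the sources used here, so the level of rpn-10 is uncertain to the extent of that overlap.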
